A study of Mus musculus with 13 samples.

Results

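The genes described here are 10 genes of mast cell proteases and receptors, Cpa3, Tpsb2, Tpsab1, Cma1, Mcpt4, Mrgprb1, Kit, Fcer1a, Ms4a2 and Hdc, out of 22609 genes measured in each tissue. They were chosen by name, with earlier results of these data known, and all 10 were found in both tables. RNA was sequenced from 13 libraries of C57BL/6 mice. The tumours were transplanted E0771 mammary tumours, a mouse breast cancer line: 3 libraries came from wild-type mice (WT) and 3 from mice whose label is fat-specific PD-L1 KO. The visceral fat came from mice fed a high-fat diet (HFD) and gave 3 libraries with the WT and 4 with the KO label. The Cre driver, the age and the sex of the hosts are not given in the sources used here, nor is the number of animals behind each library, so errors and p-values describe the spread between libraries.

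Mast cells are resident immune cells of connective tissue and mucosa that store preformed mediators in secretory granules. The granules hold histamine and proteases bound to heparin: carboxypeptidase A3, tryptases and chymases. IgE bound to the high-affinity receptor FcεRI triggers their release, and the receptor tyrosine kinase KIT keeps the cells alive through its ligand, stem cell factor. In mice, connective tissue mast cells carry Cma1, Mcpt4, Tpsb2, Cpa3 and Mas-related receptors such as Mrgprb1, while mucosal mast cells carry the chymases Mcpt1 and Mcpt2. White fat contains resident mast cells, mostly of the connective tissue kind.

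The promoters show one sequence feature that several of these genes share, the GATA element bound by GATA factors, of which GATA2 is a regulator of mast cell genes. A promoter entry (RefSeq, GRCm38.p6) was matched for 8 of the 10 genes, all but Tpsb2 and Tpsab1. Both strands of the 250 bases before the start site were searched for AGATAA and TGATAA only. Forms ending in G, AGATAG and TGATAG, were not counted as matches. Cpa3, Mcpt4, Fcer1a and Ms4a2 held at least 1 match to these words, and Cma1, Mrgprb1, Kit and Hdc held none. The forms not counted do occur among the latter: AGATAG in Mrgprb1 and, on the opposite strand, in Cma1, and TGATAG in Hdc. The split therefore holds for the words searched and not for every form of the element. Of 32851 RefSeq promoters of that length, 16.6% held a match and 2.72% held 2 or more. The 120 bases before the start site are shown for the 4 promoters with a match and for Cma1, a protease gene with neither word searched. The sequences run 5′ to 3′ on the gene's strand, with the matches in capitals.
Cpa3 (chr3:20242182-20242301, minus strand): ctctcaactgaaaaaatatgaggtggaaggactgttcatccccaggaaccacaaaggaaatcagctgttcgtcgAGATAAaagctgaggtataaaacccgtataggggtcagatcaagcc
Mcpt4 (chr14:56062311-56062430, minus strand): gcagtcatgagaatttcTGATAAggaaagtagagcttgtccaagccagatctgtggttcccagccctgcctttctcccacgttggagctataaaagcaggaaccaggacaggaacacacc
Fcer1a (chr1:173227230-173227349, minus strand): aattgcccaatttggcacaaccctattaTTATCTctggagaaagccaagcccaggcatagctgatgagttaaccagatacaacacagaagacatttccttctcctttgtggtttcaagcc
Ms4a2 (chr19:11623720-11623839, minus strand): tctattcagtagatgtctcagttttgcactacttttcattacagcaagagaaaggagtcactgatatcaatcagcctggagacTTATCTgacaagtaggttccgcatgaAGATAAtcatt
Cma1 (chr14:55944676-55944795, minus strand): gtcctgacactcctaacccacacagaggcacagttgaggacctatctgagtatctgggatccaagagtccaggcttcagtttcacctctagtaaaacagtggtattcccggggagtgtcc
In Cpa3 the match lies at positions -46 to -41 from the start site. The Mcpt4 match lies at -103 to -98 and that of Fcer1a at -92 to -87, on the opposite strand. Ms4a2 has matches at -37 to -32 and -11 to -6 in the stretch shown and 1 more at -224 to -219. The letters TATAAA occur in Cpa3 at -31 to -26, in Mcpt4 at -32 to -27 and in Fcer1a at -125 to -120, and on the opposite strand of Cpa3 at -242 to -237. This motif is found on either strand in 12.4% of RefSeq promoters. These are matches of letters, with no measurement of binding.

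The targeted gene was examined first. In fat, Cd274 normalised reads were 504 to 739 in WT and 521 to 564 in KO libraries (log2 fold change -0.10, SE 0.15, limma adjusted p = 0.66), and the values of all 4 fat libraries labelled KO lay within the WT range. Tumour values were 1391 to 1688 in WT and 1568 to 2414 in KO hosts (log2 fold change 0.37, SE 0.16, edgeR adjusted p = 0.717). The 5 epithelial markers, mostly Krt8, summed to 8921 to 10630.3 in WT and 8970.1 to 9744 in KO tumours, and adipocyte markers were abundant in fat (sums below). The tumour libraries held 22834259 to 34706555 gene reads and the fat libraries 29362788 to 41534662. Values below are normalised reads: tumour counts scaled by TMM library size, and fat values as deposited, which are reads divided by a size factor. KO and WT stand for the labels throughout. In bulk tissue, fewer cells of a type and less RNA per cell cannot be told apart.

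Mast cell granule protease mRNA stood at higher values in both tissues from KO hosts than in those from WT hosts, about 4 to 7 times by the fitted fold changes. In tumours the difference stayed short of edgeR's threshold for each of the 9 genes tested, and in fat 8 of the 10 genes passed limma's, where 16.8% of all genes did so as higher. Summed over the 10 genes, WT tumours had 1248 to 2296 normalised reads and KO tumours 3632 to 12482. WT fat had 1296 to 4382 and KO fat 5567 to 21266. In reads per 1000000 gene reads, the 10 genes made up 42.5 to 79.2 in WT tumours, 125 to 429 in KO tumours, 36.3 to 131 in WT fat and 170.2 to 656 in KO fat. The KO and WT ranges did not overlap in either tissue, while the KO libraries of each tissue differed among themselves more than 3-fold.

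Cpa3 (chromosome 3, 20215620 to 20242181, minus strand, GENCODE M21 on GRCm38) encodes carboxypeptidase A3, the granule enzyme that trims peptides from their carboxyl end. In tumours, Cpa3 stood at 219, 140.3 and 317 in WT 1 to 3 and at 1137, 2026 and 609.6 in KO 1 to 3. All KO tumours lay above all WT tumours, KO 2 was the highest and KO 3 the lowest of the KO group. The edgeR log2 fold change was 2.48 (SE 0.39). In fat, Cpa3 was 146, 322 and 669 in WT columns 1, 3 and 4 and 5164, 1201, 2957 and 1656 in KO 1 to 4. The lowest KO library was well above the highest WT library, and both groups were widely spread. The limma log2 fold change, here on the log2(value + 1) scale, was 2.89 (SE 0.59).

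The tryptase genes lie together on chromosome 17. Tpsb2 (chromosome 17, 25366305 to 25369098, plus strand) encodes mMCP-6, the main tryptase of mouse connective tissue mast cells. Tumour values of Tpsb2 were 252, 179 and 453 in WT and 1718, 2863 and 763 in KO libraries. As with Cpa3, KO 2 was highest, and WT 2 was lowest. The log2 fold change was 2.59 (SE 0.43). Fat values were 135, 351 and 901 in WT and 5037, 1293, 3487 and 1953 in KO libraries, with a log2 fold change of 2.88 (SE 0.65). The groups were apart, and WT column 4 came nearest to the KO range.

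Tpsab1 (chromosome 17, 25343245 to 25345562, minus strand) encodes mMCP-7, a tryptase that C57BL/6 mice do not make as protein because of a splice-site change, although its mRNA can be present. Tpsab1 moved like Tpsb2, at a lower level per kilobase of exon. Tumour values were 32.5, 11.5 and 24.2 in WT and 132, 223 and 85.3 in KO libraries (log2 fold change 2.68, SE 0.45). In fat they were 2.58, 13.7 and 47.4 in WT and 206, 52.9, 109 and 74.6 in KO libraries (log2 fold change 2.85, SE 0.82). KO libraries lay above WT libraries in both tissues, by a narrow gap in fat, where WT column 4 had 47.4 and KO 2 had 52.9.

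Reads of the tryptases could be told apart as far as the annotation shows. Their coding sequences were 74.9% identical over 828 aligned bases, the longest identical run was 39 bases, and no stretch of 50 bases of either gene's transcripts occurred in another annotated gene. The 90-base stretch of the alignment with the most differences is shown, with the 41 differing bases in capitals (bases 240 to 329 of the Tpsb2 coding sequence and 342 to 431 of that of Tpsab1, GENCODE M21).
Tpsb2: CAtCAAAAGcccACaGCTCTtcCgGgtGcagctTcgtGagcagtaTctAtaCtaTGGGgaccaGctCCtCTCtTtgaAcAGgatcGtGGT
Tpsab1: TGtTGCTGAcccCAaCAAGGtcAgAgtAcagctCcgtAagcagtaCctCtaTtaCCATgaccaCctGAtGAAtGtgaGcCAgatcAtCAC
Cma1 shared 5.38% and Mcpt4 5.48% of their 50-base words with another gene, Cma1 most with Gm48934 and Mcpt4 with Cma2. Ms4a2 shared 2.10%, Hdc 0.141%, and Cpa3, Mrgprb1, Kit and Fcer1a none. The read length, the counting tool and its strand setting are not given in the sources used here.

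The chymases lie in the protease cluster of chromosome 14. Cma1 (chromosome 14, 55941451 to 55944675, minus strand) encodes mMCP-5, which is stored with carboxypeptidase A3. Its tumour values were 324, 230.1 and 456 in WT and 1346, 2250.1 and 698 in KO libraries (log2 fold change 2.09, SE 0.36). Fat values of Cma1 were 98.9, 267 and 559.9 in WT and 3877, 829.6, 1929 and 1051 in KO libraries (log2 fold change 2.70, SE 0.65). Mcpt4 (chromosome 14, 56059629 to 56062313, minus strand) encodes mMCP-4, the mouse chymase closest in activity to human chymase. Mcpt4 tumour values were 414, 268 and 647 in WT and 1608, 3146 and 914 in KO libraries (log2 fold change 2.09, SE 0.40). In fat, Mcpt4 stood at 153, 304 and 753 in WT and 4399, 943, 2733 and 1443 in KO libraries (log2 fold change 2.61, SE 0.62). For both chymases and both tissues no KO library fell into the WT range.

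**Figure D1:**
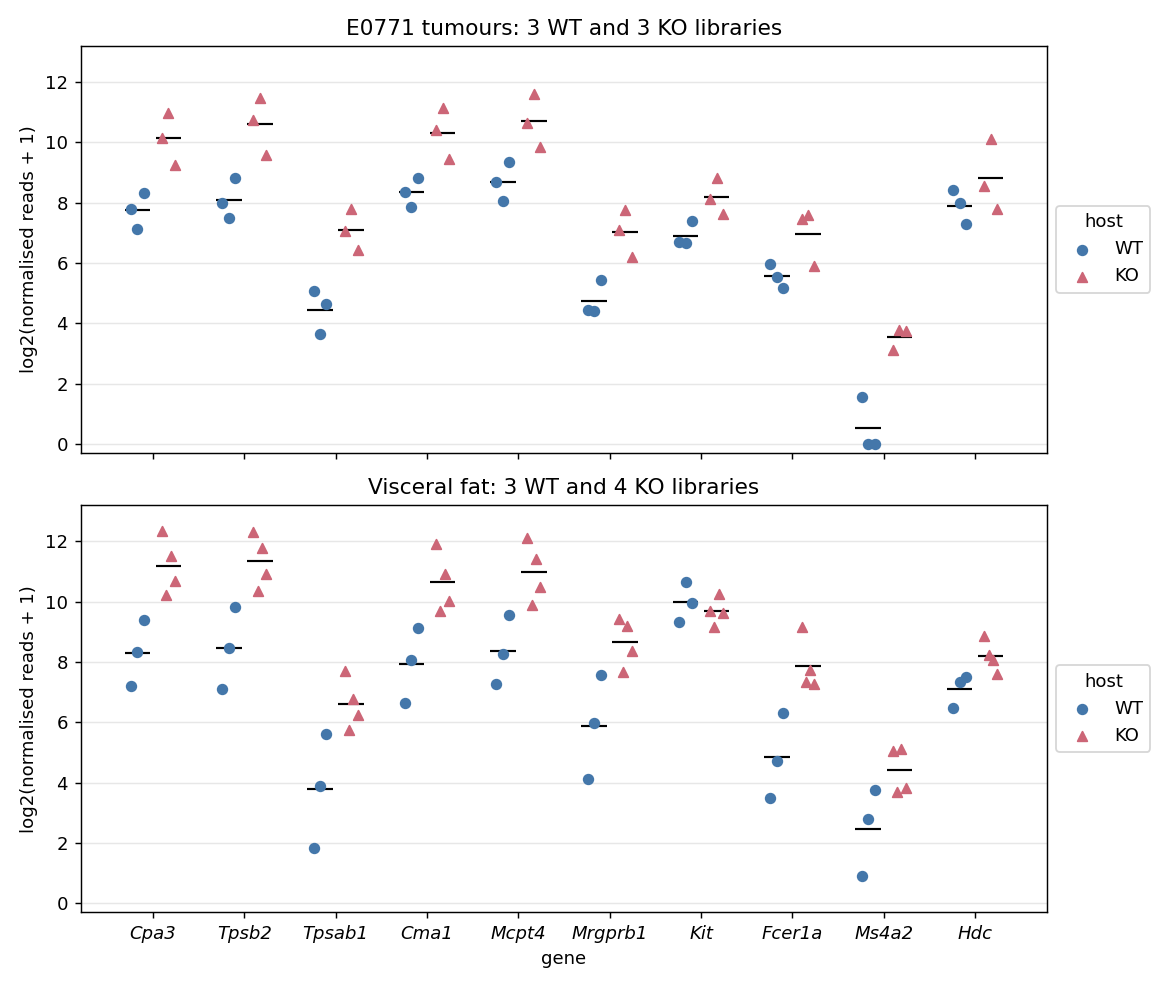
Values of the 10 genes in every library, as log2(normalised reads + 1), in E0771 tumours (top) and visceral fat (bottom). Circles are WT and triangles KO libraries, and lines are group means of the plotted values. The 5 protease genes lie higher in every KO library than in any WT library of the same tissue, while Kit in fat overlaps.

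Of the receptors, Mrgprb1 (chromosome 7, 48444113 to 48456342, minus strand), a Mas-related G protein-coupled receptor, followed the proteases. Tumour values were 20.7, 20 and 41.8 in WT and 137, 214 and 71.8 in KO libraries (log2 fold change 2.34, SE 0.45). Fat values were 16.3, 61.6 and 188 in WT and 689, 204, 578 and 327 in KO libraries (log2 fold change 2.78, SE 0.75). KO lay above WT in both tissues, in fat by a narrow gap between WT column 4 and KO 2.

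Fcer1a (chromosome 1, 173221284 to 173227214, minus strand) encodes the chain of FcεRI that binds IgE. In tumours it read 62.1, 45.8 and 35.3 in WT and 174, 192 and 58.4 in KO libraries. KO 1 and KO 2 were high, but KO 3, at 58.4, fell below WT 1, so the groups overlapped. The log2 fold change was 1.57 (SE 0.42). Fat values were 10.3, 25.4 and 78.4 in WT and 574, 161, 209.7 and 152 in KO libraries (log2 fold change 3.03, SE 0.68). Here all KO libraries were above all WT libraries, and KO 1 stood far above the other KO libraries.

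Ms4a2 (chromosome 19, 11615523 to 11623719, minus strand) encodes the beta chain of FcεRI, which amplifies its signal. It had few reads: the WT tumours had 2, 0 and 0 reads and the KO tumours 9, 10 and 11. These counts, 2 against 30 in all, did not pass the filter on low counts in edgeR. Per gene read the KO tumours had 16.5 times the WT level, with a 95% interval from 4.19 to 143 that covers counting error only. In fat the values were 0.860, 5.87 and 12.4 in WT and 32.0, 11.9, 33.6 and 13.1 in KO libraries (log2 fold change 1.94, SE 0.72), and the groups overlapped at WT column 4 and KO 2.

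Kit (chromosome 5, 75574916 to 75656722, plus strand), the stem cell factor receptor, did not follow the proteases in fat. Kit tumour values were 102, 99.3 and 166 in WT and 281, 455 and 196 in KO libraries, without overlap (log2 fold change 1.34, SE 0.32). In fat, Kit was 644, 1617 and 994 in WT and 822, 569, 1223 and 783 in KO libraries (log2 fold change -0.31, SE 0.33). The fat groups overlapped, and a WT library, column 3, was the highest. Kit is also a gene of melanocytes and blood progenitors. The 5 melanocyte markers summed to 3712 to 18478 in WT tumours and 882 to 7020 in KO tumours, with none at 0 throughout, and to 82.2 to 115 in WT fat and 39.0 to 80.6 in KO fat, with Tyr at 0 reads. The 5 blood progenitor markers, led by Cd34 and Cebpa, which vessel, stromal and fat cells also express, summed to 819 to 1042 in WT and 701 to 952 in KO tumours, and to 21002 to 24390 in WT and 12231 to 18315 in KO fat. Their part in the Kit values was not tested.

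Hdc (chromosome 2, 126593667 to 126619299, minus strand) encodes histidine decarboxylase, the enzyme that makes histamine. Tumour values were 343, 254 and 156 in WT and 372, 1099.6 and 222 in KO libraries (log2 fold change 1.16, SE 0.48). The groups overlapped, and KO 2 alone stood above 1000. Basophils and neutrophils also express Hdc. The 7 neutrophil markers in the table summed to 4103 in KO 2 and to 739 to 1689 in the other 5 tumours; Camp had no read, and the part of these cells in the Hdc values was not tested. In fat, Hdc was 88.6, 160.4 and 179 in WT and 466, 302, 268 and 192 in KO libraries (log2 fold change 1.09, SE 0.34), with KO above WT. The neutrophil markers in fat summed to 324 to 791 in WT and 813 to 1162 in KO libraries, and the part of those cells was not tested.

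**Figure D2:**
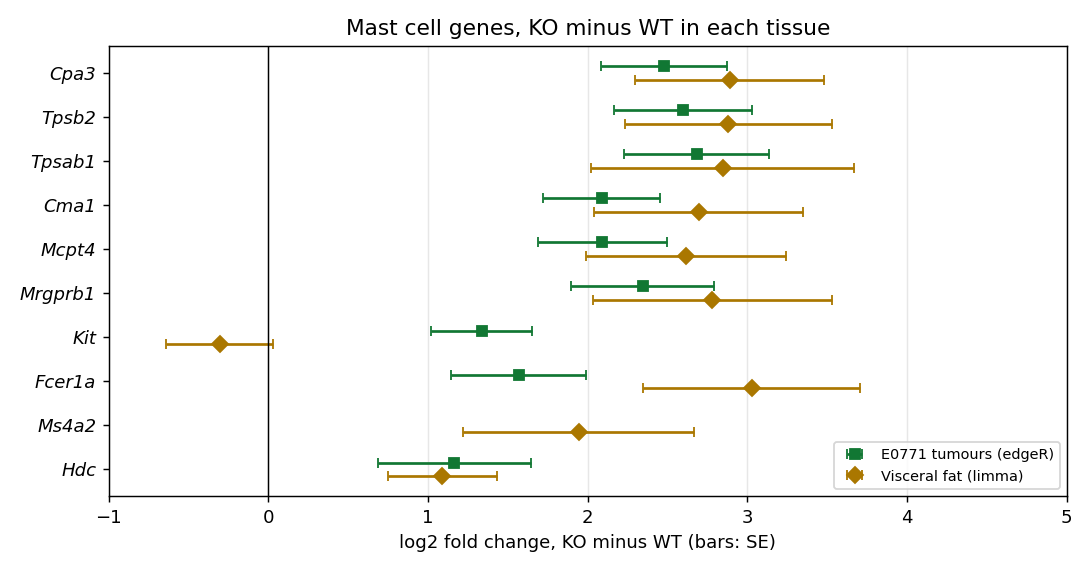
Fitted log2 fold change, KO minus WT, of each gene in tumours (squares, edgeR) and fat (diamonds, limma), with bars of 1 SE. Ms4a2 was not fitted in tumours. The protease genes and Mrgprb1 lie between 2.09 and 2.89 in both tissues, and Kit lies at 1.34 in tumours and at -0.31 in fat.

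Counted over the whole group, 9 of the 10 genes passed the filter in tumours and 10 of 10 in fat. In tumours the median log2 fold change was 2.09, against 0.00 over all 13109 genes tested. Of the 9 genes, 0 passed edgeR's threshold (adjusted p under 0.05), where the share of all genes that passed as higher was 0%. At an unadjusted p under 0.05 all 9 passed in edgeR, beside 3.79% of all genes higher in KO, and DESeq2 called 7 of 10, beside 0.378%. For 7 of the 9 every KO library was above every WT library, as for 5.68% of all genes, and so it was for the untested Ms4a2. Without the low-count filter edgeR called 6 of the 10 genes, among 22 genes called in all. Without KO 3 it called 5 of 9, among 9 genes called in all. Without WT 3 it called 2 of 10, among 21 genes called in all. In fat the median was 2.74, against 0.00 over 14455 genes, and 8 of 10 passed limma's threshold as higher, where 16.8% of all genes did. The same 8 had every KO library above every WT library, as 21.6% of all genes did. Without WT column 3 or without KO 1, limma called 5 of 10, and the share of all genes called in those fits is not given here. Because the genes were chosen with these contrasts known, the counts describe them and are no test.

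In each tissue 6 of the 10 genes ranked the libraries in one order, also within a group. In tumours the order KO 2, KO 1, KO 3, WT 3, WT 1, WT 2 held exactly for 6 genes, Cpa3, Tpsb2, Cma1, Mcpt4, Mrgprb1 and Kit. KO 2 was the highest library for all 10. In fat the order KO 1, KO 3, KO 4, KO 2, then WT columns 4, 3 and 1 held exactly for 6 genes, the 5 proteases and Mrgprb1. KO 1 was highest for 8 of 10 and WT column 1 lowest for 9 of 10. Within a tissue these values share libraries and their depth.

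Dividing by Cpa3 in the same library removes this shared movement and any scaling of the library. Tpsb2 had 1.15 to 1.51 reads per Cpa3 read over the 6 tumours and 0.924 to 1.35 over the 7 fat libraries. Cma1 per Cpa3 read ran from 1.11 to 1.64 in tumours and from 0.635 to 0.837 in fat. Mcpt4 ran from 1.41 to 2.04 in tumours and from 0.785 to 1.12 in fat. For these 3 genes the ratio moved at most 1.48-fold between libraries of a tissue, and for Cma1 and Mcpt4 the tumour and fat ranges did not overlap. The tissues came in tables of their own, so this was not tested.

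Within the tumours, both chymases were lower relative to Cpa3 in KO hosts. Cma1 per Cpa3 read was 1.11 to 1.18 in KO and 1.44 to 1.64 in WT tumours, and Mcpt4 1.41 to 1.55 in KO and 1.89 to 2.04 in WT tumours. The ranges of Mcpt4 were also apart in fat, with 0.785 to 0.924 in KO and 0.945 to 1.12 in WT libraries, while those of Cma1 overlapped, with 0.635 to 0.751 and 0.676 to 0.837. Tpsb2 per Cpa3 read overlapped between hosts in both tissues. These differences in ratios between hosts were not tested.

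The ratios of Kit and Hdc were less even. Kit per Cpa3 read was 0.225 to 0.322 in KO and 0.468 to 0.707 in WT tumours, and 0.159 to 0.473 in KO and 1.49 to 5.02 in WT fat, a 31.5-fold range over fat libraries. Hdc per Cpa3 read spanned 5.54-fold in tumours and 6.72-fold in fat. Fcer1a per Cpa3 read spanned 3.44-fold in tumours but 1.90-fold in fat, from 0.0706 to 0.134. Tpsab1 spanned 1.95-fold in tumours and 4.02-fold in fat, where its lowest ratio, in WT column 1, came from a normalised value of 2.58.

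**Figure D3:**
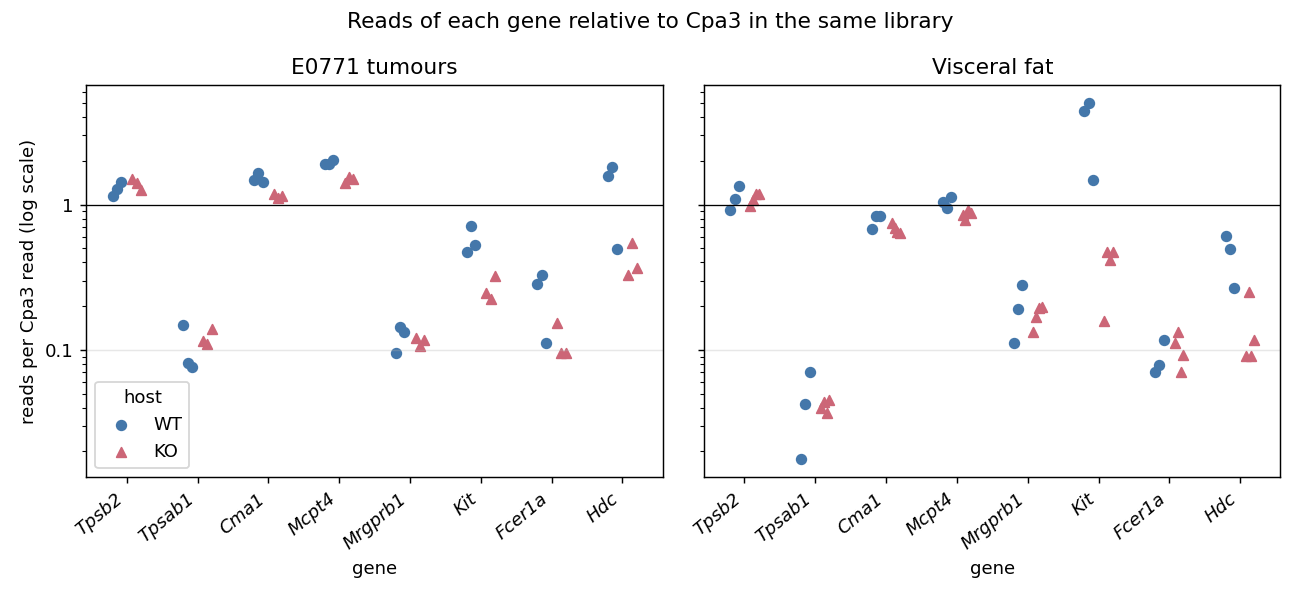
Reads of 8 genes per Cpa3 read in the same library, on a log axis, in tumours (left) and fat (right); circles are WT and triangles KO libraries. Ms4a2 is left out because of its 0 counts. Tpsb2, Cma1 and Mcpt4 lie between 0.635 and 2.04 in every library, and Kit in fat runs from 0.159 to 5.02.

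Levels of different genes were compared per kilobase of exon. Mcpt4 was the highest of the 10 in 13 of 13 libraries, and Mcpt4, Cma1, Tpsb2 and Cpa3 held the first 4 places in 13 of 13. In KO fat the normalised reads per kilobase were 2148 ± 1393 for Mcpt4, 1846 ± 1049 for Tpsb2, 1809 ± 1171 for Cpa3 and 1763 ± 1273 for Cma1 (SD, n = 4), and the places after Mcpt4 changed from library to library. In KO tumours they were 1705 ± 1031 for Mcpt4, 1313 ± 715 for Cma1, 1118 ± 659.5 for Tpsb2 and 829 ± 472 for Cpa3 (SD, n = 3), and these 4 genes kept this order in 6 of 6 tumours. The SDs hold the movement from library to library that the genes share, so they are not the error of a difference between genes. Fcer1a came next in KO libraries, with 142 ± 72.7 in tumours and 275 ± 202 in fat. Hdc (88.4 ± 73.5), Tpsab1 (70.0 ± 33.5), Kit (34.9 ± 14.8) and Mrgprb1 (33.7, range 17.2 to 51.1) followed in KO tumours, and Mrgprb1 (107 ± 53.3), Kit (95.3 ± 30.6), Tpsab1 (52.9 ± 32.4) and Hdc (48.1 ± 18.1) in KO fat, in an order that changed between the libraries of each group. Ms4a2 was last in 13 of 13 libraries, at 3.87 ± 1.02 in KO tumours and 8.05 ± 4.18 in KO fat per kilobase.

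The genes whose profile was most like that of Cpa3 were found by the root mean square difference of log2 values, each relative to its own WT mean, over the libraries of a tissue. In tumours, over 6 libraries and 10745 genes, the 5 nearest were Tpsb2 (0.15), Mrgprb1 (0.21), Mcpt4 (0.28), Cma1 (0.29) and Tpsab1 (0.36). Gbp1, Gzmd, Il1rl1, Xcr1 and Kcnk13 came next, at 0.47 to 0.63. Kit was at rank 14, Fcer1a at 20 and Hdc at 97. In fat, over 7 libraries and 11931 genes, Tpsb2, Cma1 and Mcpt4 took ranks 1 to 3, and Fcer1a, Mrgprb1 and Tpsab1 ranks 5 to 7. The nearest others were Tph1, which makes the serotonin that mouse mast cells store, at rank 4, Mrgprb2 and Mrgprx2 (Mas-related receptors) at 8 and 9, Slc18a2, the transporter that loads amines into granules, at 10, and Prss34, a protease of mast cells and basophils, at 11. Hdc was at rank 444 and Kit at 8002.

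In the protease cluster of chromosome 14, Mcpt1 and Mcpt2 had 218 and 377 reads over the 6 tumours. Both encode mucosal chymases. Mcpt2 had 18.6 to 33.4 normalised reads in WT and 59.9 to 217 in KO tumours (log2 fold change 2.20, SE 0.52, edgeR adjusted p = 0.439), and Mcpt1 had 3.72 to 18.7 normalised reads in WT and 11 to 162 in KO tumours (log2 fold change 2.73, SE 0.85, edgeR adjusted p = 0.574). In fat, Mcpt1 had 1 read and Mcpt2 2 reads over all 7 libraries. The basophil protease Mcpt8 had 76 reads over 6 tumours and 7 over 7 fat libraries, and Mcpt9 had none in either tissue. Ctsg, cathepsin G of neutrophils and mast cells, had 0.860 to 2.06 normalised reads in WT and 9.71 to 66.2 in KO fat (log2 fold change 3.55, SE 0.63). It passed the filter on low values through KO libraries only, where it was high, so its p is not given. In tumours Ctsg had 9.85 to 10.5 normalised reads in WT and 6.74 to 16.0 in KO tumours, with overlap (log2 fold change 0.23, SE 0.57, edgeR adjusted p = 0.949). The 7 granzyme genes of T and NK cells lie beside it, of which Gzmg and Gzmn had too few tumour reads to be tested. In 3 of those tested every KO tumour was above every WT tumour, as in 5.68% of all genes tested. Gzmd had 22.7 to 53.0 normalised reads in WT and 118 to 176 in KO tumours (fitted fold 3.90, SE 0.35 on the log2 scale, edgeR adjusted p = 0.204). Gzme had 13.4 to 36.3 and 44.7 to 106 (log2 fold change 1.61, SE 0.47, edgeR adjusted p = 0.541), and Gzmf 43.3 to 86.5 and 91.1 to 209 (log2 fold change 1.40, SE 0.37, edgeR adjusted p = 0.511). Gzmb overlapped between hosts, at 2340 to 2682 in WT and 2622 to 3481 in KO tumours, as did Gzmc. On chromosome 17, Prss34 had 4 reads over 6 tumours, and in fat 8.60 to 41.2 normalised reads in WT and 52.9 to 128 in KO fat (log2 fold change 2.19, SE 0.55, limma adjusted p = 0.0168).

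**Figure D4:**
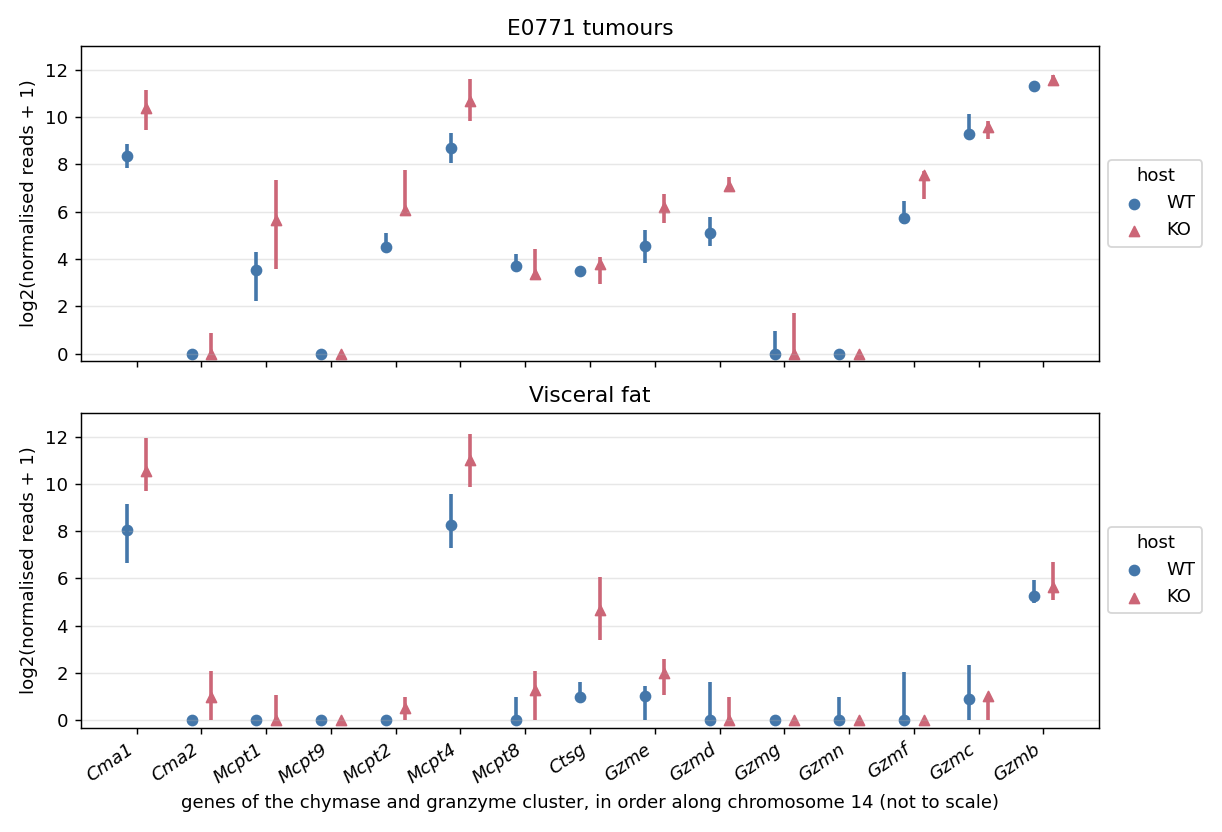
Genes of the chymase and granzyme cluster in their order along chromosome 14, with log2(normalised reads + 1) in tumours (top) and fat (bottom). Markers are medians and lines run from the lowest to the highest library, blue for WT and red for KO. Cma1 and Mcpt4 are high in both tissues, while Mcpt1, Mcpt2 and the granzymes other than Gzmb are at or near 0 in fat.

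Other genes of mast cell biology, 68 in 7 lists, were counted in the same fits. In tumours, 53 were tested and 0 passed edgeR in either direction. In edgeR 12 had an unadjusted p under 0.05, all higher in KO, beside 3.79% of all genes higher. DESeq2 called 6 as higher, beside 0.378% of all genes: Il1rl1, Lcp2, Mcpt1, Mcpt2, Mrgprb2 and Serpinb1a. The tumour median of the 53 tested genes was 0.18. In fat, 55 were tested, 30 were higher and 7 lower in KO by limma (54.5% and 12.7%, beside 16.8% and 17.4% of all genes), with a median of 0.96. Leaving out 1 fat library at a time gave 23 to 27 higher and 6 to 7 lower genes. The shares of all genes called in those fits are not given here.

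Among surface receptors, 4 of 6 tested genes rose in KO fat, beside 16.8% of all genes. Mrgprb2, the receptor through which basic peptides and drugs activate mast cells, had 7.74 to 60.8 normalised reads in WT and 71.2 to 208 in KO fat (log2 fold change 2.26, SE 0.66, limma adjusted p = 0.0299). In tumours Mrgprb2 had 0 to 6.68 normalised reads in WT and 15.7 to 87.9 in KO tumours (log2 fold change 3.49, SE 0.87, edgeR adjusted p = 0.453). There it passed the filter on low counts through the KO tumours only. Il1rl1, the receptor for interleukin-33, had 547 to 588 normalised reads in WT and 943 to 1394 in KO fat (log2 fold change 1.08, SE 0.16, limma adjusted p = 0.00207). Its ligand Il33, from the growth factor list, had 419 to 691 normalised reads in WT and 1044 to 1631 in KO fat (log2 fold change 1.31, SE 0.21, limma adjusted p = 0.00291). Fcer1g, the FcεRI gamma chain that macrophages also carry, had 1069 to 3906 normalised reads in WT and 7134 to 10966 in KO fat (log2 fold change 2.09, SE 0.38, limma adjusted p = 0.00443).

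The FcεRI and KIT signalling list had 14 of 18 genes higher and 1 lower in KO fat, beside 16.8% and 17.4% of all genes. Its median log2 fold change was 1.04. Lat2, an adaptor of mast and myeloid cells, was among the higher genes (log2 fold change 3.04, SE 0.48, limma adjusted p = 0.00272), as was the exchange factor Vav1 (2.24, SE 0.36, limma adjusted p = 0.00294). In the granule and mediator list 6 of 12 genes rose and 3 fell, beside the same shares of all genes. Hpgds, the prostaglandin D synthase of mast cells and some macrophages, had 321 to 1665 normalised reads in WT and 6465 to 8405 in KO fat (log2 fold change 3.68, SE 0.51, limma adjusted p = 0.00179). Tph1 rose from low values, with 2.58 to 17.5 normalised reads in WT and 25.9 to 195 in KO fat (log2 fold change 2.92, SE 0.75, limma adjusted p = 0.0182). Slc18a2 rose as well (log2 fold change 2.35, SE 0.75, limma adjusted p = 0.0406), although its groups overlapped.

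Of 7 transcription factors tested in fat, 3 rose and 1 fell, beside 16.8% and 17.4% of all genes. Mitf, which controls mast cell and melanocyte genes, rose (log2 fold change 1.79, SE 0.19, limma adjusted p = 0.000939), and Stat5a fell (-0.62, SE 0.10, limma adjusted p = 0.00295). Gata2 had 242 to 459.9 normalised reads in WT and 142 to 393 in KO fat, with overlap (log2 fold change -0.35, SE 0.36, limma adjusted p = 0.474). Among growth factors, Kitl, which encodes stem cell factor, had 3560.4 to 4587 normalised reads in WT and 4493 to 5000.3 in KO fat (log2 fold change 0.27, SE 0.12, limma adjusted p = 0.124), and Il9 had no read. Of 5 genes of histamine receptors, histamine breakdown and the tryptase receptor, 1 fell in KO fat, a share near the 17.4% of all genes. It was Hnmt, which inactivates histamine (log2 fold change -0.59, SE 0.14, limma adjusted p = 0.0122). In tumours Hnmt stood the other way, with 11.5 to 14.9 normalised reads in WT and 23.6 to 66.3 in KO tumours and no overlap (log2 fold change 1.44, SE 0.54, edgeR adjusted p = 0.676).

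Several of these genes are also expressed by macrophages, and other cell markers moved between the fat groups. Of 8 macrophage markers 7 rose in KO fat, beside 16.8% of all genes. Their sum was 24672 to 72850 in WT and 133164 to 179786 in KO libraries, with no marker at 0. The sum was highest in WT column 1 among WT and in KO 2 among KO libraries. The leukocyte gene Ptprc rose as well, with 2309 to 6845 normalised reads in WT and 10528 to 14042 in KO fat (log2 fold change 1.64, SE 0.32, limma adjusted p = 0.00606). All 8 adipocyte markers fell, beside 17.4% of all genes, with sums of 862289 to 882057 in WT and 265427 to 415655 in KO fat. All 6 endothelial markers fell as well, beside the same share, with sums of 43328 to 55066 in WT and 18529 to 31014 in KO fat. Male germ cell markers summed to 49.5 to 587 in WT and at most 25.4 in KO fat, highest in WT column 1. Fibroblast markers summed to 197126 to 348885 in WT and 367096 to 505630.0 in KO fat, and neutrophil markers to 324 to 791 and 813 to 1162. Type 2 lymphoid markers summed to 776 to 2276 in WT and 4845 to 7475 in KO fat, mostly from Il7r. Il7r alone was 351 to 1926 in WT and 4517 to 7159 in KO fat. Of the 5 type 2 lymphoid markers tested, 1 was called higher and 1 lower, near the 16.8% and 17.4% of all genes. The log2 fold change was below 0 for 4 of them, with a median of -0.70. Blood progenitor markers summed to 21002 to 24390.0 in WT and 12231 to 18315 in KO fat, skeletal muscle markers to 540.3 to 1308 and 289 to 465, epithelial markers to 588 to 1524 and 386 to 549, and melanocyte markers to 82.2 to 115 and 39.0 to 80.6. None of these sums overlapped between the groups. Of single genes tested in fat, 21.6% had every KO library above every WT library. Of the markers tested, 1 of 6 fibroblast and 1 of 4 neutrophil markers were called higher, near the 16.8% of all genes for lists of this size. In the melanocyte list Dct fell and Mlana rose (limma log2 fold changes -1.59 and 3.09). Mlana passed the filter on low values through KO libraries only. The part of these shifts in the mast cell gene values was not tested.

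In tumours the macrophage markers had sums of 25645 to 30389 in WT and 27763 to 40070 in KO libraries. Adipocyte markers summed to 888 to 962 in WT and 891 to 1106 in KO tumours, 5 of the 8 under 10 in every tumour. Skin keratinocyte markers summed to 119 to 223 in WT tumours and to 31.2 in KO 1 and 24.7 in KO 3, but to 401 in KO 2, the tumour with the highest mast cell values. T cell markers summed to 2718 to 3738 in WT and 3406 to 7631 in KO tumours, again highest in KO 2. Skeletal muscle markers summed to 269.9 to 656 in WT and 131 to 247 in KO tumours, without overlap. What part these cells or adjoining tissue had in the tumour values was not tested. Basophil markers summed to 448 to 650.1 in WT and 452 to 580 in KO tumours, and to 724 to 772 in WT and 1333 to 1465 in KO fat. Il3ra made up much of the fat sum, at 257 to 468 in WT and 916 to 1119 in KO libraries. Of 4 basophil markers tested in fat 3 were called higher, beside 16.8% of all genes, while Gata2 overlapped. Mcpt8 had 7 reads over 7 fat libraries.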

How the data were processed

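Per the labels' protocols, RNA was extracted with Trizol and libraries were made with a stranded mRNA kit (Illumina TruSeq). The submitters' processing notes name TopHat, CASAVA and DESeq2 and the build mm10, without versions or roles. For tumours the authors deposited read counts per gene symbol. The counts end with 5 summary lines that name no gene. These held 66.7% to 72.2% of all entries and were left out before library sizes were taken. Most of these entries, 59.05% to 63.79% of all entries, were alignments placed several times. Whether any came from the genes described was not examined. Fat values, as deposited, are a normalised signal for each gene: all 117220 values above 0 were whole multiples of the column's step (tolerance 0.001), so each is a read count over a size factor. The WT fat columns are numbered 1, 3 and 4 and the labels 1, 2 and 3, so these columns were assigned by group only and are named by column.

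Tumour counts were fitted with edgeR 4.0.16 (TMM, filterByExpr, quasi-likelihood test, R 4.3.3), and fat values, as log2(value + 1), with the trended limma 3.58.1 for genes at 10 or more in at least 3 libraries. Tests were two-sided, on all genes, with Benjamini-Hochberg adjustment and a threshold of 0.05. The fat fold change understates that of low genes. The genes described and all lists were chosen with earlier results of these data known. The text names all 10 genes, Cd274, 14 genes fixed by name, genes of smallest p of each list, and in each tissue the 5 other genes of mean 50 or more most like Cpa3. Adgre1, Spi1 and Siglecf stand in the tables as Emr1, Sfpi1 and Siglec5. Positions and exon lengths are from GENCODE M21 on GRCm38 (mm10), matched by symbol. Alternatives were DESeq2 1.42.0, RLE factors, no filter, other pseudocounts, equal totals, edgeR on recovered reads, a replicate block, and leaving out each library. The scripts were tested on simulated data. Libraries of a group differed by far more than sampling noise (chi-square per degree of freedom 24.2 to 235 over 15 pairs), so none was counted as a duplicate.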

Additional observations from a re-analysis of the deposited data

Results flagged for a closer look

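Fcer1a in KO fat was 574.007 normalised reads in KO 1 and 152 to 209.7 in the other 3 KO libraries. The gap between KO 1 and the next library was 0.864 of the group's whole range, above the 95% critical value of Dixon's test for 4 samples. The test used values without log and was not run on the log2 scale of the fits. Fcer1a was the only one of the 10 genes to pass that limit among KO fat libraries, and chance passes about 1 in 20 groups. KO 1 was the highest KO fat library for 8 of the 10 genes. Per Cpa3 read, Fcer1a in KO 1 was 0.111, between KO 3 at 0.0709 and KO 2 at 0.134. The 3 other groups have 3 libraries each and were not examined.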

How the results depend on the processing

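In tumours, 0 of the 9 tested genes passed in edgeR. DESeq2 called 7 of the 10 genes as higher and 6 other mast cell genes, where 0.378% of all genes were called higher. Without the low-count filter edgeR called 6 of the 10 genes and 1 other mast cell gene, Il1rl1, among 22 genes called in all. Leaving out 1 tumour at a time gave 0 to 5 calls. Without KO replicate 3 there were 5 (Cpa3, Tpsb2, Tpsab1, Cma1 and Mcpt4), among 9 genes called in all. Without WT replicate 3 there were 2 (Cpa3 and Tpsb2), among 21 genes called in all. Without each other tumour there were 0. The tumour median log2 fold change was 1.60 to 2.60 with 1 tumour left out, lowest without KO replicate 2. With the replicate block it was 1.99, with 0 calls. The replicate numbers did not pair the tumours: correlations of the deviations of same-numbered libraries were -0.22, 0.01 and -0.22, and none correlated best with its own number. No paired analysis was possible because the WT fat columns carry numbers that differ from the labels, so for fat no block was fitted. In fat, leaving out 1 library gave 5 to 9 calls among the 10 genes, with medians of 1.97 to 3.36. There were 5 calls without WT column 3 or KO replicate 1 and 9 without WT column 4. The share of all genes called in these fits is not given here, so a general loss or gain of calls cannot be told apart. The counts of called genes in fat moved by under 1.5 times under other pseudocounts, no filter, equal totals and edgeR on recovered reads, which called 7 of 10 where 16.3% of all genes were higher. Among the values recomputed for single named genes, 1621 kept their direction and their side of the threshold, 69 lost a call, 31 gained one and 0 changed direction with a call. Ms4a2 had too few tumour reads for a fit with the filter, so depth limits its value.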
